A study of Mus musculus with 18 samples.

Results

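The Igf2r and Kcnq1 imprinted domains of the mouse were described CpG by CpG, through the genes Igf2r and Airn on chromosome 17 and Kcnq1, Kcnq1ot1, Cdkn1c and Phlda2 on chromosome 7. Members were all CpGs in the bodies of these 6 genes or within 5 kb of them (build GRCm38) that had at least 10 reads in both pools of a tissue. They numbered 596 of 1628817 CpGs tested in liver, 588 of 1569349 in hypothalamus and 678 of 1876099 in adipose tissue. The Igf2r domain held 159, 144 and 188 of them in that order of tissues, and the Kcnq1 domain 437, 444 and 490. In all 3 tissues together, 131 CpGs of the Igf2r domain and 412 of the Kcnq1 domain could be read.

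The study measured DNA methylation by reduced representation bisulfite sequencing, which reads CpG-rich fragments cut by MspI, in offspring exposed before birth to bisphenol A (BPA), a building block of polycarbonate plastic that binds oestrogen receptors weakly. BPA-group offspring came from C57BL/6 dams gavaged daily with 5 mg BPA per kg, in a corn oil carrier, on days 1 to 20 after conception, and control offspring (titled WT) from dams given the carrier alone. Liver, hypothalamus and gonadal fat of male offspring were taken at 3 weeks of age, with 3 samples per group and 18 in all, and offspring stemmed from 4 BPA litters and 3 control litters. The authors joined the 3 samples of a group into 1 pool, so each level below is the methylated share of a pool's reads and has no spread between animals. A pool numbered 0 was read as control from the order of names in a label, and with the opposite numbering every BPA difference would change sign. The levels and tissue comparisons given below for control pools would then be those of BPA pools.

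Imprinted genes are expressed from only 1 parental allele, and an imprinting control region carries methylation on only 1 of the alleles in every tissue, which gives an intermediate level in bulk DNA. In the Igf2r domain the control region lies in an intron of Igf2r and is methylated on the maternal allele. It holds the promoter of Airn, a long noncoding RNA made from the paternal allele that runs antisense through the start of Igf2r and silences it. Igf2r, the receptor that clears the growth factor IGF2 and carries mannose-6-phosphate-tagged enzymes to lysosomes, is made from the maternal allele in most tissues and from both alleles in mouse neurons. Its own promoter acquires methylation on the silent paternal allele after fertilization. In the Kcnq1 domain the control region, known as KvDMR1, lies in an intron of the potassium channel gene Kcnq1 and holds the promoter of the paternal noncoding RNA Kcnq1ot1. Cdkn1c, an inhibitor of cyclin-dependent kinases, and Phlda2, which restrains placental growth, are maternally expressed genes silenced by that RNA.

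The promoter sequences below show where the measured CpGs fall at the starts the results turn on. They run 5' to 3' in the direction of transcription, from 250 bases before to 50 bases after the annotated start, and were taken from RefSeq on GRCm38.p6. For Igf2r (chr17:12769657-12769956, minus strand) and Phlda2 (chr7:143502475-143502774, minus strand), capitals mark the CpGs measured in these data, 26 of 34 and 21 of 26. Of these, 15 at Igf2r and 21 at Phlda2 were measured in every tissue. For Airn (chr17:12741061-12741360, plus strand) and Kcnq1ot1 (chr7:143296498-143296797, minus strand), capitals mark every CpG, 3 and 9, of which none was measured.
Igf2r: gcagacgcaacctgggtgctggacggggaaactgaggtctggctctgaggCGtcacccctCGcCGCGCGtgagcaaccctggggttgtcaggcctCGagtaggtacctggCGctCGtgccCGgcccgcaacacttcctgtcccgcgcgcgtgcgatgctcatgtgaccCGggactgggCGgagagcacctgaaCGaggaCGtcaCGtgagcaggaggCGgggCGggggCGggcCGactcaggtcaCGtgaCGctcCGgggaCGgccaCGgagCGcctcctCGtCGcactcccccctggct
Airn: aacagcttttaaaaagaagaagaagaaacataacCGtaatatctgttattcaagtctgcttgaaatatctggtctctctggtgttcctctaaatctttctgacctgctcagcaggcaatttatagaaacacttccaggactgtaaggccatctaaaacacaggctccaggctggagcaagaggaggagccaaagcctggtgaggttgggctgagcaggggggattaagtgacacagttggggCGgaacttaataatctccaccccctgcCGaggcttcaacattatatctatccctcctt
Kcnq1ot1: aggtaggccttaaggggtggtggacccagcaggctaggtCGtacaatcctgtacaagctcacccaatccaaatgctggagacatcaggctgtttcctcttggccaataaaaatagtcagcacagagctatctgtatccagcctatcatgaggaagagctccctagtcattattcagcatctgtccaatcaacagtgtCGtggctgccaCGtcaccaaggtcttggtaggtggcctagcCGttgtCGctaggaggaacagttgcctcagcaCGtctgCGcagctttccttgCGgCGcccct
Phlda2: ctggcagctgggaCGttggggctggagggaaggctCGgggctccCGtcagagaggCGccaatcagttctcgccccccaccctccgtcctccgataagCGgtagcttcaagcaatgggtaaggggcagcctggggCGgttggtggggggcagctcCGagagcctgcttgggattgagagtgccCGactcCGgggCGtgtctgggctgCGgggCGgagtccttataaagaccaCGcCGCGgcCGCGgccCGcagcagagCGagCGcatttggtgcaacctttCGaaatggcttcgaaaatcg
The CpGs nearest to the starts of the noncoding RNAs lay 279 bp downstream for Airn and 930 bp downstream for Kcnq1ot1, so both control regions were read beside their promoters and not within them. By CpG content, 7.73% of the 32817 promoters of the table had as many CpGs as Igf2r, 16.9% as many as Phlda2, 45.8% as many as Kcnq1ot1 and 76.7% as many as Airn. The letters CCAAT, the box bound by the factor NF-Y, were searched on both strands and stood 3 times in the Kcnq1ot1 window, 188, 148 and 67 bases before the start. As many matches were found in 3.37% of promoters and at least 1 in 37.4%. Phlda2 had 1 match, and no match lay in the Igf2r and Airn windows. The letters TGCCGC, the motif of the imprint-keeping factor ZFP57, were on neither strand of any of the 4 windows and stood in 11.6% of promoters. The motifs do not overlap each other, and a match is a description of the sequence.

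Median depth over all CpGs was 127 reads in the BPA pool and 136 in the control pool of liver, 98 and 93 in hypothalamus, and 164 and 144 in adipose tissue. Reads of a pool are not independent molecules, so the 95% intervals given here (Clopper-Pearson for levels, Newcombe for differences) cover counting error only. Over all tested CpGs, the squared standardized difference between pools averaged 1.18 in liver, 1.18 in hypothalamus and 1.91 in adipose tissue, where counting error alone gives 1. Marker genes were checked by their methylation, since no expression was used: of 5 hepatocyte genes all 5 were lowest in liver, of 5 neuron genes 3 were lowest in hypothalamus, and of 5 adipocyte genes 3 were lowest in adipose tissue. Fgb, a fibrinogen chain made by hepatocytes, stood at 23.7% in liver, 91.3% in hypothalamus and 82.5% in adipose control pools. The remaining 2 neuron genes and 2 adipocyte genes were lowest in liver. Of 5 endothelial genes 4 were also lowest in adipose tissue, as were 3 of the 4 measured epididymis and testis genes. Of 5 leukocyte genes 2 were lowest in adipose tissue, 2 in hypothalamus and 1 in liver. The part that the mixture of cells plays in the tissue differences below was not tested, and in bulk tissue a lower share of cells methylated and fewer cells of a methylated type cannot be told apart.

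The control region of the Igf2r domain kept an intermediate level in all 6 pools. The 14 CpGs within 1 kb of the Airn start and measured in every tissue stood at 35.7% in the BPA pool and 38.9% in the control pool of liver. In hypothalamus the levels were 32.2% with BPA and 36.0% in control, and in adipose tissue 45.9% with BPA and 47.1% in control. The differences, BPA minus control, were -3.21, -3.72 and -1.25 points, with no test, because neighbouring CpGs share reads. Single CpGs of this window ranged only between 28.2% and 53.5% over all pools. Taking the whole group of 20 CpGs (chr17:12741590-12742376, inside both Igf2r and Airn), levels were 36.4% with BPA and 38.8% in control in liver, 32.1% and 35.3% in hypothalamus, and 45.9% and 46.7% in adipose tissue. The BPA pool was the lower at 17 of 20 of these CpGs in liver, 16 in hypothalamus and 13 in adipose tissue. None of them passed the test in any tissue. At an unadjusted p under 0.05 the counts were 0, 0 and 1.

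The promoter of Igf2r differed between tissues far more than between BPA and control. Within 1 kb of its start, 67 CpGs measured in every tissue stood at 21.2% with BPA and 20.5% in control in liver, 3.20% and 3.17% in hypothalamus, and 31.2% and 30.2% in adipose tissue. Hypothalamus was the low tissue in both treatments, and the BPA and control levels of a tissue lay within 1.09 points of each other. The group of CpGs at this promoter runs from chr17:12769266 to chr17:12770120. There the hypothalamus control pool was lower than the adipose control pool at 68 of 78 CpGs (Fisher's exact test on reads, with a Benjamini-Hochberg adjusted value, below called the exact adjusted p, under 0.05 and at least 5 points), with a median difference of -29.8 points. The liver control pool was higher than the hypothalamus pool at 45 of 67 CpGs and lower than the adipose pool at 18 of 67. After the p-values were scaled by the excess over counting error, 42, 41 and 5 of these calls were made. The scaled share was 53.8% for hypothalamus against adipose tissue (background 6.74%) and 61.2% for liver against hypothalamus (background 15.2%), but for liver against adipose tissue it was 7.46%, below the background of 9.05%.

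**Figure D1:**
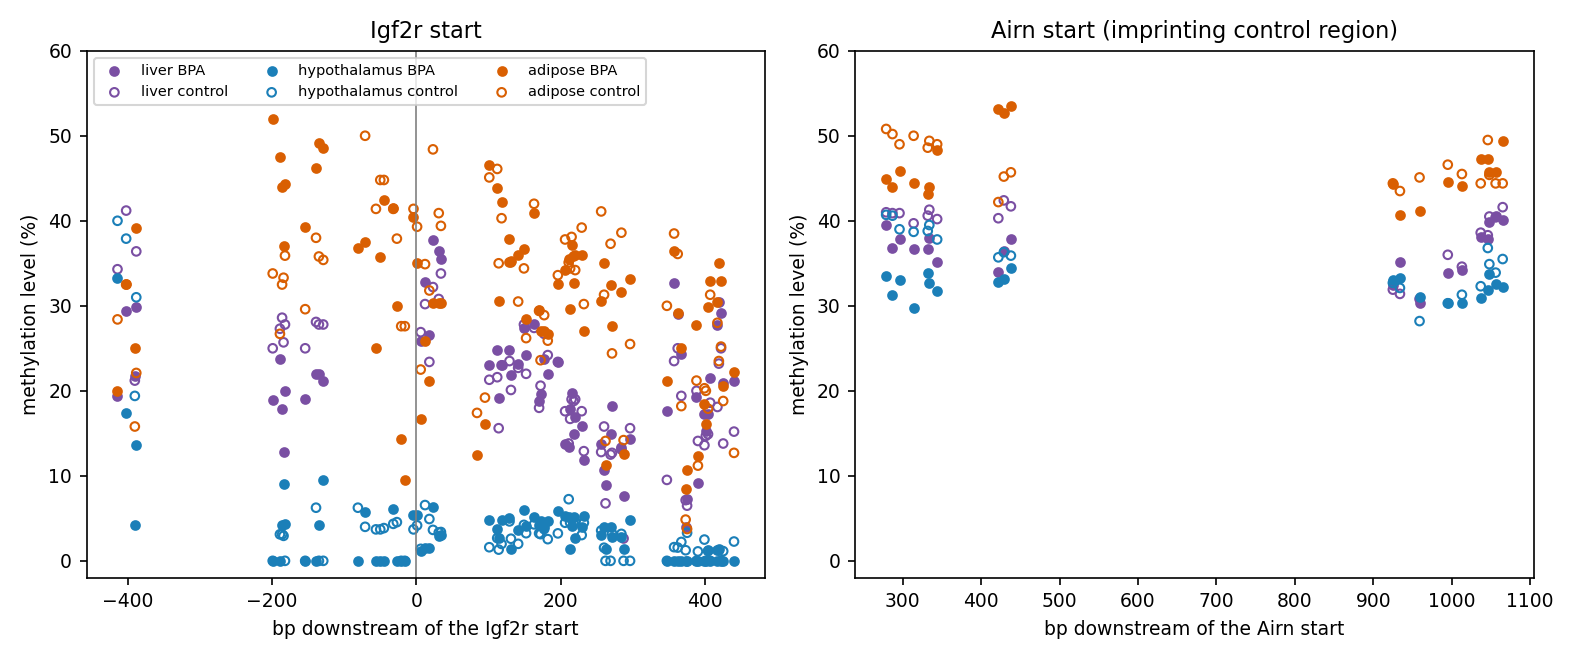
Methylation level in percent of CpGs around the Igf2r start (left) and downstream of the Airn start (right), by distance from the start in the direction of transcription. Each point is 1 CpG in 1 pool, filled for BPA and open for control; at the Igf2r start the hypothalamus points lie lowest at nearly every position downstream of -250 bp, while at the Airn side all 6 pools lie between 28.2% and 53.5%.

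The CpG of the Igf2r domain with the smallest p between hypothalamus and adipose tissue, chr17:12769594 (112 bp downstream of the start), stood at 2.68% of 149 reads in hypothalamus control DNA, against 46.1% of 141 reads in adipose control DNA. The difference was -43.4 points (95% interval -51.8 to -34.5, exact adjusted p = 6.7e-18). In the BPA pools the same CpG stood at 3.79% in hypothalamus and 43.9% in adipose tissue, and in liver at 24.8% with BPA and 21.6% in control. Its neighbours chr17:12769588 and chr17:12769605 had the same order of tissues, with 1.99% and 1.60% in hypothalamus control DNA, against 40.3% and 45.1% in adipose control DNA. The low hypothalamus level was not uniform. At 4 CpGs between 450 and 251 bp upstream of the start it was 16.7% with BPA and 31.9% in control, against 1.03% with BPA and 1.24% in control at 25 CpGs from 251 to 500 bp downstream. Between 250 and 1 bp upstream, 9 CpGs of adipose tissue stood at 45.3% with BPA and 33.5% in control, and in liver at 19.7% with BPA and 27.0% in control. No CpG of the promoter passed the BPA test in any tissue, and the smallest adjusted p was 0.19, in adipose tissue.

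Counted over the whole Igf2r domain, the tissue differences include those at the promoter. In all, 62 of 133 CpGs differed between liver and hypothalamus control pools (55 higher and 7 lower in liver; background of all CpGs 16.9%, with 5.72% higher and 11.2% lower). Between hypothalamus and adipose control pools 78 of 145 differed, 73 of them lower in hypothalamus (background 12.9%, with 9.08% higher and 3.79% lower). Between liver and adipose control pools 47 of 158 differed, 33 of them lower in liver (background 16.5%, with 8.42% higher and 8.06% lower). The promoter group held 45 of the 62 calls, 68 of the 78 and 18 of the 47, in that order of comparisons. With scaled p-values it held 42 of the 46 calls between hypothalamus and adipose tissue, so few calls of that comparison lay outside it. Near the lower-coordinate end of Igf2r, 10 CpGs (chr17:12689024-12689226) stood at 91.4% in liver, 59.9% in hypothalamus and 49.5% in adipose control DNA, and all 10 were higher in liver than in either other tissue. The BPA pools of the same CpGs had 94.1%, 59.6% and 47.5%. The CpG chr17:12689081 gave 96.8% of 126 reads in liver, against 51.2% of 203 reads in adipose control DNA (45.6 points, interval 37.3 to 52.7, exact adjusted p = 2.3e-19). In the body of Airn beyond the Igf2r start, 6 CpGs (chr17:12790200-12790874) had liver as the lowest tissue, with 12.9% in liver, 50.7% in hypothalamus and 32.1% in adipose control DNA. All 6 were lower in liver than in hypothalamus. At chr17:12790673 the level was 0.962% of 104 reads in liver, against 56.8% of 37 reads in hypothalamus control DNA. At the control region all 20 CpGs were at a lower level in hypothalamus than in adipose control DNA (median -10.5 points), and all 20 in liver than in adipose control DNA (median -8.45 points). The test called 4 of 20 as lower in hypothalamus and 4 as lower in liver than in adipose tissue, 20.0% in each comparison and above the backgrounds of 3.79% and 8.06%. With scaled p-values 1 and 0 of these calls were made, and no CpG of the region differed between liver and hypothalamus.

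BPA and control pools of the Igf2r domain differed in adipose tissue at 2 of 188 CpGs, both lower with BPA (1.06%; background 0.535% of all CpGs, 0.283% lower). In liver 0 of 159 and in hypothalamus 0 of 144 passed (background 0.0259%, with 0.0181% higher and 0.0078% lower, and 0.00599%, with 0.00299% in each direction). At an unadjusted p under 0.05 the Fisher test gave 8 CpGs in liver (5.03%, background 4.21%), 4 in hypothalamus (2.78%, background 3.41%) and 17 in adipose tissue (9.04%, background 10.1%). Those shares are near the background of each tissue. Airn had 0 called CpGs in every tissue, of 127 tested in liver, 115 in hypothalamus and 144 in adipose tissue, with 6, 0 and 12 at an unadjusted p under 0.05.

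The 2 called CpGs lie in one group within the body of Igf2r, at lower coordinates than the control region. At chr17:12726414 adipose DNA was methylated on 49.8% of 271 reads with BPA and 71.2% of 267 reads in control, a difference of -21.4 points (interval -29.2 to -13.1, exact adjusted p = 0.0013). The same CpG read 74.5% with BPA and 77.1% in control in liver, and 83.0% with BPA and 70.4% in control in hypothalamus. The sign in hypothalamus was the opposite of that in adipose tissue, and the test of the difference between these tissues gave an adjusted p of 0.070 (Wald test of log odds ratios). At chr17:12726321 adipose DNA had 21.1% of 251 reads with BPA and 40.9% of 247 reads in control (-19.8 points, interval -27.5 to -11.7, exact adjusted p = 0.0033). In liver this CpG had 33.5% with BPA and 43.3% in control, and in hypothalamus 56.5% with BPA and 54.3% in control. With 2 further CpGs of the same group, chr17:12726190 (10.1% with BPA and 17.3% in control in adipose tissue) and chr17:12726240 (a difference of -3.7 points), the adipose levels were 33.5% with BPA and 47.9% in control. All 4 were lower with BPA in adipose tissue and in liver. In hypothalamus these further CpGs were also lower with BPA, at 30.8% with BPA and 49.5% in control (-18.7 points, exact unadjusted p = 0.011) and at 60.3% with BPA and 75.2% in control (-14.9 points, exact unadjusted p = 0.037), both with an adjusted p of 1, so the group had no common direction in that tissue. Both calls ended when p-values were scaled by the excess over counting error.

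Where no CpG passed, the smallest p of the domain is given. In liver it belonged to chr17:12854552 in the body of Airn, with 94.7% of 19 reads with BPA and 58.6% of 29 reads in control (36.1 points, interval 11.1 to 54.5, exact adjusted p = 0.89). In hypothalamus it belonged to chr17:12709533 in the body of Igf2r, with 90.0% of 90 reads with BPA and 100% of 72 reads in control (-10.0 points, interval -17.9 to -3.1, exact adjusted p = 1).

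**Figure D2:**
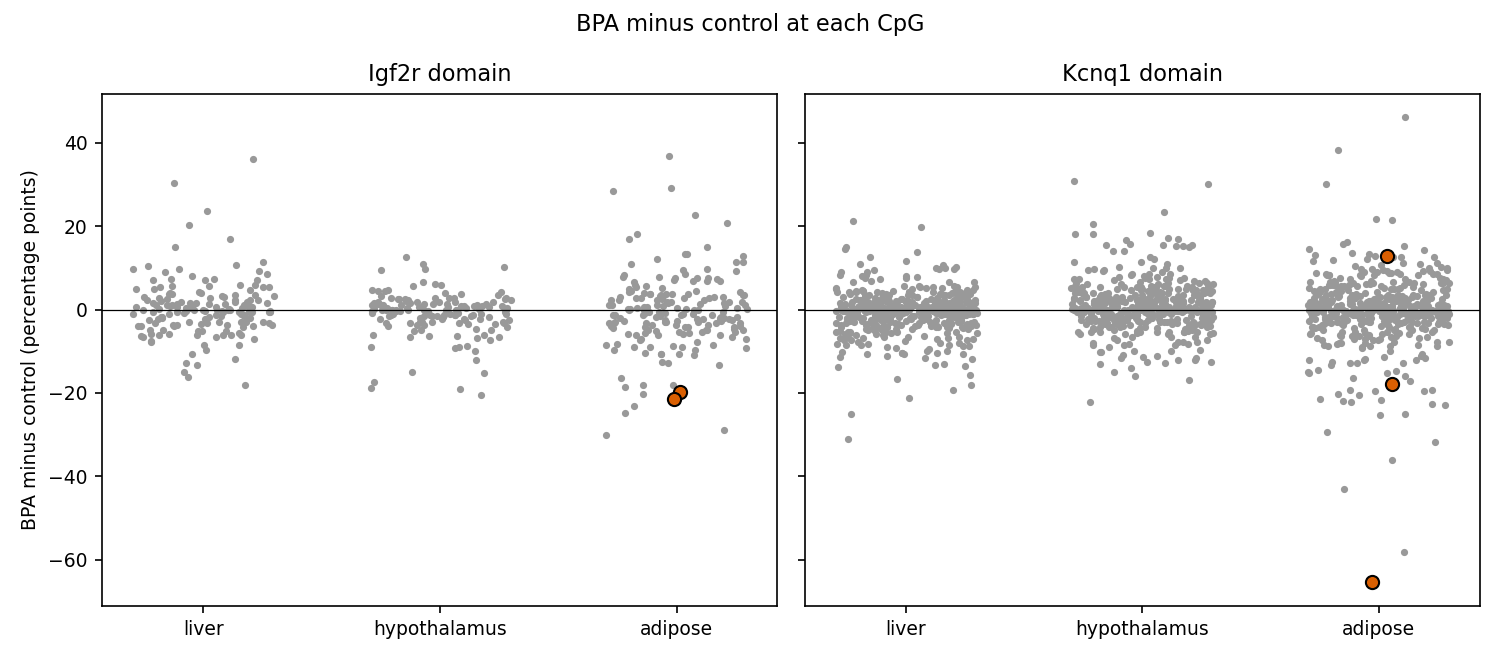
Difference in methylation level between BPA and control pools (percentage points) at each tested CpG of the Igf2r domain (left) and the Kcnq1 domain (right), by tissue; horizontal spread within a tissue is only to separate points. Large points with black rims passed the test, 2 in the Igf2r domain and 3 in the Kcnq1 domain, all in adipose tissue.

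The control region of the Kcnq1 domain also lay at intermediate levels. The 7 CpGs within 1 kb of the Kcnq1ot1 start stood at 33.9% with BPA and 37.1% in control in liver, 37.2% and 32.9% in hypothalamus, and 43.1% and 44.0% in adipose tissue. The differences of -3.20, 4.37 and -0.86 points have no test and no common direction. The whole group of 11 CpGs (chr7:143295469-143295617, inside Kcnq1 and Kcnq1ot1) gave 33.3% with BPA and 38.2% in control in liver, 35.9% and 33.8% in hypothalamus, and 42.0% and 44.0% in adipose tissue. Each of the 11 lay between 30.8% and 46.9% in every pool, the narrowest range of any group of 10 or more CpGs in either domain that was measured in all tissues. The BPA pool was lower at 10 of 11 in liver, 4 in hypothalamus and 8 in adipose tissue. None passed the test, with 1, 0 and 0 at an unadjusted p under 0.05. None of the 11 passed the test between the control pools of any pair of tissues. All 11 were still at a lower level in hypothalamus than in adipose control DNA (median -10.3 points, smallest exact adjusted p = 0.067). All 11 were also lower in liver than in adipose control DNA (median -5.9 points, smallest exact adjusted p = 0.20).

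Levels such as these at both control regions were uncommon but not particular to them. Of 16240 gene starts with at least 5 CpGs measured in all tissues, 949 (5.84%) lay between 20% and 80% in all 6 pools. That band is wider than the 32.2% to 47.1% of the Airn and Kcnq1ot1 windows, so the share can include starts at unlike levels. Of 11587 starts with at least 10 CpGs, the one most like Kcnq1ot1 over the 6 pools was that of Spaca1, a sperm acrosome protein, with a mean absolute difference of 1.72 points. Next came Snrpn, which shares its start with Snurf and is itself an imprinted gene (2.49 points), Etnppl (3.08 points) and Bckdk (3.13 points). For Airn the nearest were Aldoc, an aldolase of the brain (1.84 points), Spaca1 (2.30 points), Krtcap3 (2.67 points), Etnppl (3.31 points) and Arpp21 (3.35 points). In runs of 5 or more CpGs at 20% to 80% in every control pool, the Igf2r domain had 1, of 23 CpGs that include the control region and a gap of 15176 bp without measured CpGs, and the Kcnq1 domain 4, of 5 to 11 CpGs.

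**Figure D3:**
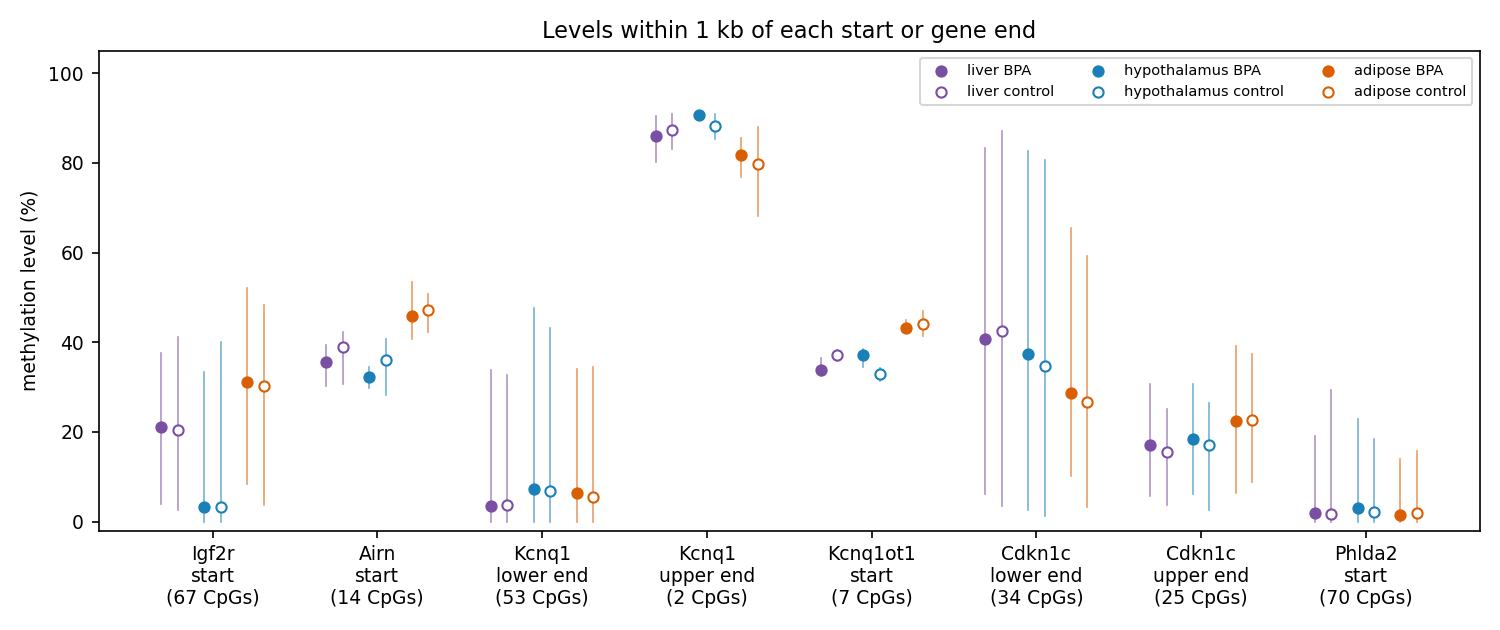
Methylation level in percent within 1 kb of the start of Igf2r, Airn, Kcnq1ot1 and Phlda2 and of both ends of Kcnq1 and Cdkn1c, over CpGs measured in all tissues. Points are the methylated share of all reads, filled for BPA and open for control, and lines run from the lowest to the highest CpG; Phlda2 lies at most at 3.07% in all 6 pools, and the Airn and Kcnq1ot1 windows lie between 32.2% and 47.1%.

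The coding genes of the Kcnq1 domain held low, mixed and high stretches. Phlda2 was almost unmethylated: 70 CpGs around its start gave 1.92% with BPA and 1.73% in control in liver, 3.07% and 2.22% in hypothalamus, and 1.53% and 2.05% in adipose tissue. Of the 72 CpGs in its group, 43 stayed under 5% in every pool, and 2 just past its lower-coordinate end reached 20% or more in every pool. One of these, chr7:143501451, stood at 55.6% of 36 reads with BPA and 38.6% of 44 reads in control in hypothalamus. No CpG of Phlda2 was called between BPA and control or between tissues. The CpG-rich lower-coordinate end of Kcnq1 was also low, with 53 CpGs at 3.44% with BPA and 3.66% in control in liver, 7.28% and 6.87% in hypothalamus, and 6.40% and 5.43% in adipose tissue. There 32 of 53 stayed under 5% in all pools, while chr7:143106924 was between 32.7% and 47.6% in all of them.

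Cdkn1c carried an intermediate and uneven level. The 25 CpGs at the upper-coordinate end of Cdkn1c stood at 17.2% with BPA and 15.6% in control in liver, 18.4% and 17.1% in hypothalamus, and 22.6% and 22.7% in adipose tissue. At the lower-coordinate end 34 CpGs gave 40.7% with BPA and 42.4% in control in liver, 37.5% and 34.8% in hypothalamus, and 28.8% and 26.7% in adipose tissue. At chr7:143458971 liver control DNA had 70.4% of 372 reads, against 31.5% of 394 reads in adipose control DNA (38.9 points, interval 32.2 to 45.2, exact adjusted p = 1.8e-25). Hypothalamus control DNA lay between them, at 52.4%, and the BPA pools had 64.0% in liver, 52.2% in hypothalamus and 38.0% in adipose tissue. Between control pools, 13 of 120 Cdkn1c CpGs differed between liver and hypothalamus, 18 of 127 between hypothalamus and adipose tissue, and 24 of 120 between liver and adipose tissue. These shares of 10.8%, 14.2% and 20.0% lay below, near and slightly above the backgrounds of 16.9%, 12.9% and 16.5%.

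The body of Kcnq1 held most of the tissue differences of its domain. Over the domain, 104 of 418 CpGs differed between liver and hypothalamus control pools (24.9%, background 16.9%; 76 higher in liver, or 18.2% against a background of 5.72%), 95 of 435 between hypothalamus and adipose pools (21.8%, background 12.9%; 51 higher in hypothalamus, or 11.7% against 9.08%) and 106 of 439 between liver and adipose pools (24.1%, background 16.5%; 80 higher in liver, or 18.2% against 8.42%). Kcnq1 with its flanks had 91 of 226, 77 of 235 and 82 of 247. With scaled p-values the counts over the domain were 102 of 418, 57 of 435 and 69 of 439, against scaled backgrounds of 15.2%, 6.74% and 9.05% of all CpGs. The CpG of smallest p, chr7:143340914, stood at 95.2% of 559 reads in liver, against 54.2% of 454 reads in hypothalamus control DNA (41.0 points, interval 36.0 to 45.8, exact adjusted p = 4.9e-54). With BPA it had 94.2% in liver and 56.4% in hypothalamus. Adipose tissue lay between, at 79.9% with BPA and 78.8% in control. At chr7:143418043 adipose tissue was the low tissue, with 92.7% of 371 reads in liver and 87.0% of 262 reads in hypothalamus control DNA, against 52.3% of 371 reads in adipose control DNA.

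Which tissue was highest changed from group to group along Kcnq1. Liver was highest at 6 CpGs of chr7:143389218-143389329, with 76.0% in liver, 46.2% in hypothalamus and 18.5% in adipose control DNA. It was also highest at 9 CpGs of chr7:143408659-143408925, with 86.3%, 53.4% and 33.1%. Hypothalamus was lowest at 12 CpGs of chr7:143340645-143341072, with 89.1% in liver, 50.4% in hypothalamus and 67.9% in adipose control DNA, and just past the upper end of the gene at 17 CpGs of chr7:143427486-143428699, with 85.6%, 55.9% and 75.0%. The order turned at 3 CpGs of the group chr7:143286552-143287519, inside Kcnq1ot1. They had 16.4% in liver, 73.0% in hypothalamus and 44.7% in adipose control DNA. All 3 were lower in liver than in hypothalamus and higher in hypothalamus than in adipose tissue. The BPA pools gave 16.1%, 70.2% and 52.0%, the same order. This order was not particular to Kcnq1ot1. In Kcnq1 outside it, 2 CpGs of chr7:143313725-143314000 had 12.9% in liver, 74.4% in hypothalamus and 37.8% in adipose control DNA. At 3 CpGs of chr7:143412664-143412770 the levels were 45.5%, 79.7% and 56.25%. Inside Kcnq1ot1, 2 CpGs of chr7:143260450-143260668 had another order, with 88.3%, 91.8% and 78.5%.

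**Figure D4:**
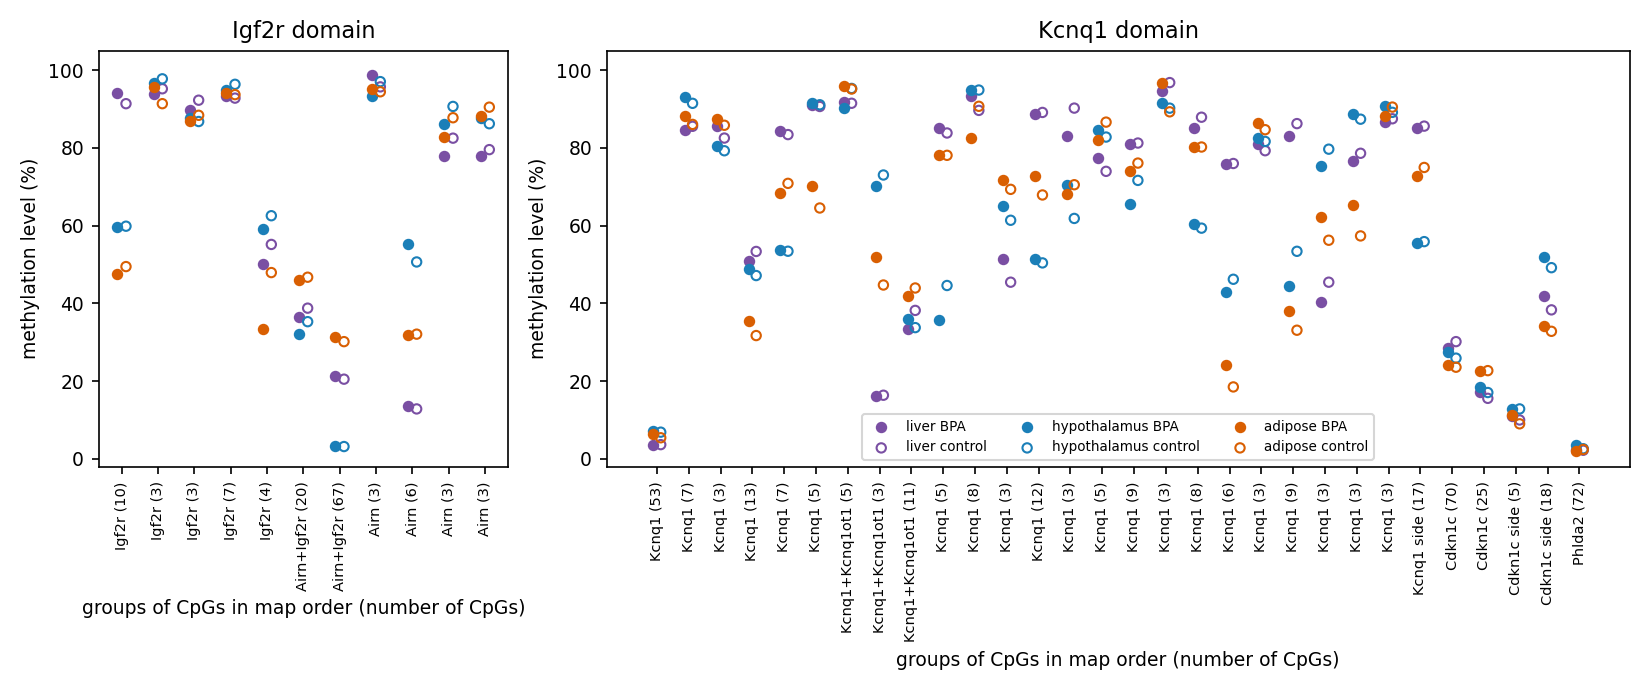
Methylation level in percent of groups of neighbouring CpGs along both domains, in map order, for groups with at least 3 CpGs measured in all tissues; axis labels give the gene body, or the gene whose flank holds the group, and the number of CpGs. Filled points are BPA pools and open points control pools; in 10 of 11 groups of the Igf2r domain and 27 of 30 of the Kcnq1 domain the widest gap between treatments is smaller than the range of the control pools over tissues, and Phlda2 and the lower end of Kcnq1 lie near 0 in all.

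BPA and control pools of the Kcnq1 domain differed at 3 of 490 CpGs in adipose tissue, 1 higher and 2 lower with BPA (0.612%, against the background of 0.535% given above, with 0.252% higher). In liver 0 of 437 and in hypothalamus 0 of 444 passed. At an unadjusted p under 0.05 there were 27 CpGs in liver (6.18%, background 4.21%), 17 in hypothalamus (3.83%, background 3.41%) and 69 in adipose tissue (14.1%, background 10.1%). Kcnq1ot1 had 0 called CpGs of 27 in liver, 22 in hypothalamus and 28 in adipose tissue, with 2, 1 and 1 at an unadjusted p under 0.05. Kcnq1 had 2 of 286 and Cdkn1c 1 of 131 in adipose tissue.

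Beside Cdkn1c, chr7:143464208 was methylated on 22.3% of 382 adipose reads with BPA and 9.55% of 335 reads in control, a difference of 12.8 points (interval 7.39 to 17.9, exact adjusted p = 0.0052). The adipose BPA level lay within the range of the other tissues, which had 18.0% with BPA and 16.5% in control in liver, and 23.5% and 21.0% in hypothalamus. In Kcnq1, chr7:143328617 had 78.5% of 107 adipose reads with BPA and 96.3% of 134 reads in control (-17.8 points, interval -26.7 to -9.56, exact adjusted p = 0.014). Liver had 100% of 30 reads with BPA and 92.3% of 39 reads in control, and hypothalamus 100% of 10 reads and 94.4% of 18 reads. The lone CpG chr7:143124200 in Kcnq1 had 19.2% of 26 adipose reads with BPA and 84.6% of 13 reads in control (-65.4 points, interval -80.8 to -32.7, exact adjusted p = 0.036), and too few reads in the other tissues. All 3 calls ended with scaled p-values.

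The smallest p of the domain in liver was at chr7:143344478 in Kcnq1, with 80.4% of 179 reads with BPA and 92.1% of 202 reads in control (-11.7 points, interval -18.7 to -4.76, exact adjusted p = 0.55). Hypothalamus had 82.0% of 122 reads with BPA and 66.7% of 108 reads in control at this CpG, with the opposite sign. In hypothalamus the smallest p was in Phlda2 at chr7:143502185, with 5.07% of 138 reads with BPA and 0 of 158 reads in control, an interval that runs up to 2.31% (exact adjusted p = 1). Across both domains, no CpG passed the test of a difference between tissues in the BPA effect (Wald test; background 0.0266% for hypothalamus minus adipose, 0.0493% for liver minus adipose and 0.00375% for liver minus hypothalamus). The smallest adjusted p was 0.064, at chr7:143417873 in Kcnq1, where the BPA difference was -9.0 points in liver and 12.0 points in adipose tissue.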

How the data were processed

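Libraries were made from 100 ng of MspI-cut DNA with size selection, bisulfite treatment and PCR, per the labels' protocols. The aligner was BSMAP on GRCm38 (mm10), per the submitters' processing notes; its version and the removal of PCR copies are not given in the sources used here. The authors deposited 1 table per tissue, with rows of 2 bp joining both strands and 2 pools per table. Per the file headers, the deposited counts are reads per CpG and pool, the deposited fraction is their methylated share, given to 3 significant digits, and the deposited p-value comes from an exact test by Fisher's method of 1 pool against the other. Recomputed from the counts, it matched on 99.6%, 99.8% and 99.6% of CpGs checked in liver, hypothalamus and adipose tissue. The authors' deposited credible difference, a score of their own, served as an alternative. Starts in the tables count from 0, checked against the Igf2r and Phlda2 promoters, and positions here count from 1.

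A CpG was called at a Benjamini-Hochberg adjusted p under 0.05 over all nuclear CpGs with at least 10 reads per pool, and a difference of at least 5 points. The test is two-sided and compares pools of reads, not animals. Control pools of different tissues were set against each other by the same exact test, and effects between tissues by a Wald test with 0.5 added to each cell. On simulated data only the exact test within a tissue was checked, not the Wald test or the comparison of control pools. Groups of CpGs join neighbours at most 500 bp apart and were defined after the data were seen, without use of levels. The domains, lists and windows were chosen with earlier results of these data known. All called CpGs are named per domain and tissue, or that of smallest p where none was called; between tissues those named come from the 3 of smallest p per domain and pair, and other CpGs and the groups described were chosen after their values were seen. Gene bounds and starts came from RefSeq (GRCm38.p6). The promoter list used held no entry for Kcnq1 and Cdkn1c, so no start or strand was used for them. Alternatives covered the read minimum, minimum difference, scaling of p-values, deepest CpGs, flank and window size. Python 3.11.15, pandas 2.3.3, numpy 2.4.6, scipy 1.17.1 and numba 0.67.0 were used.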

Additional observations from a re-analysis of the deposited data

How the results depend on the processing

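No paired analysis was possible because the deposited columns are pools with no replicate numbers, and leaving out single samples was not run for the same reason. Scaling p-values by the excess over counting error left 0 called CpGs in adipose tissue in both domains, where 2 (Igf2r) and 3 (Kcnq1) had been called. The authors' deposited credible difference of at least 5 points was also taken as the call. It gave 3 of 159, 1 of 144 and 8 of 188 CpGs of the Igf2r domain in liver, hypothalamus and adipose tissue. In the Kcnq1 domain it gave 2 of 437, 4 of 444 and 22 of 490, in the same order. The background was 0.995%, 0.858% and 2.99% of all CpGs. A scaling of the tissue comparison, chosen after seeing the data, lowered the Igf2r domain's calls to 46 between hypothalamus and adipose tissue and 20 between liver and adipose tissue, and the Kcnq1 domain's to 57 and 69. The other 102 recomputed counts and start levels lay within 1.5 times the count, or within the counting interval of a CpG of median depth. They include counts of 0 in liver and hypothalamus, which a stricter rule cannot raise. Start levels at 20 reads, also among them, used the same CpGs. The Kcnq1 domain's adipose count fell from 3 to 2 at 20 reads and in gene bodies only, which is exactly at the limit of 1.5. BPA minus control around the Airn start stayed below 0 in all 3 tissues, from -5.69 to -0.79 points over the windows tried, and around Kcnq1ot1 it lay between -4.86 and 4.37 points with the sign of each tissue kept. A window of 500 bp around the Kcnq1ot1 start held no CpG. Median depth over all CpGs was 93 to 164 reads per pool. In the Igf2r domain the shallower pool had a median of 75.5 reads in hypothalamus and 80 in liver. Differences of a few points at 1 CpG were not detectable at such depths. Larger ones also went uncalled, such as -18.7 points at chr17:12726190 in hypothalamus and 36.1 points at chr17:12854552 in liver. The counts of 0 in liver and hypothalamus therefore do not show that no difference was present.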

Other observations

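Genes next to the members were counted as a list. Of 4 neighbours in the Igf2r domain, Slc22a2, an organic cation transporter, had 1 CpG called between BPA and control pools, the only call among 191 CpGs of these neighbours tested in adipose tissue (0.524%, background 0.535%). It was chr17:12584664 in adipose tissue, at 88.0% of 366 reads with BPA and 76.0% of 296 reads in control (12.0 points, interval 6.11 to 17.9, Fisher exact adjusted p = 0.027). Of 13 neighbours in the Kcnq1 domain, Cd81, Tssc4 and Trpm5 share 1 called CpG within their bodies or flanks, of 645 tested in adipose tissue (0.155%), chr7:143070105 in adipose tissue, at 10.3% of 68 reads with BPA and 46.9% of 49 reads in control (-36.6 points, interval -51.3 to -20.4, exact adjusted p = 0.0091). Both calls ended with scaled p-values, and no CpG of these 17 genes passed in liver or hypothalamus.

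Of 8 other imprinted starts, 5 had at least 5 CpGs measured in all tissues. Nnat, Peg3, Plagl1 and Snrpn lay between 12.6% and 47.6% in all 6 pools, and Grb10 at most at 2.36%. The widest gap between pools was at Peg3, with 40.2% with BPA and 26.6% in control in liver, 25.3% and 12.6% in hypothalamus, and 33.4% and 29.5% in adipose tissue, over 10 CpGs and with no test.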
